A study of Homo sapiens with 4 samples.

Results

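The 9 genes followed here mark glia and the oligodendrocyte lineage, and were measured in Hs683, an established human glioma cell line, with a knockdown of QK (current symbol QKI). The genes were OLIG1, OLIG2, SOX10, SOX2, PDGFRA, CSPG4, MBP, CNP and GFAP, taken by name, and all 9 were found among the 17716 genes of the table. One group of 2 arrays came from QK-knockdown Hs683 cells transduced with miR-20a, and the other group of 2 arrays came from QK-knockdown Hs683 cells transduced with miR-NT, a scrambled microRNA without a target. The knockdown was therefore shared by all 4 arrays, and no array of Hs683 cells without it was analysed here. The labels name neither the knockdown agent nor whether the 2 arrays of a group were separate cultures, so the p-values cover array-to-array spread that may be technical. The question was what miR-20a changes in glioma cells with the QK knockdown, whose extent cannot be read from these arrays.

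Oligodendrocytes, the cells that make myelin in the central nervous system, arise from precursors that carry PDGFRA and CSPG4 on their surface. The transcription factors OLIG1, OLIG2 and SOX10 set and drive that lineage, SOX2 is a factor of neural stem cells and precursors, MBP and CNP are myelin proteins of the mature cell, and GFAP is the intermediate filament of astrocytes. QKI is an RNA-binding protein of glia, and in mice it is required for myelination and binds the Mbp transcript. A microRNA lowers transcripts that pair with its seed, the bases near its 5′ end.

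The sequences of miR-20a are shown because the miR-20a cells were transduced with this microRNA. The labels do not name the arm, so both mature arms are printed from RefSeq (build GRCh38.p14), 5′ to 3′ in RNA letters, with the seed (bases 2 to 8) in capitals. The miR-20a-5p arm lies at chr13:91351072-91351094 and the miR-20a-3p arm at chr13:91351108-91351129, both on the plus strand. The seed of miR-20a-5p was held by 8 mature microRNAs of the RefSeq table, itself included, and miR-17-5p is added to show it in a neighbour from the same cluster.
hsa-miR-20a-5p: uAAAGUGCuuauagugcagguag
hsa-miR-20a-3p: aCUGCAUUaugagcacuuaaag
hsa-miR-17-5p: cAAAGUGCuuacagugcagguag

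The 9 markers spanned the dim part of the arrays and its middle, and none was bright. Levels are log2 array values, each of 1 probe set, the short probes that together read 1 transcript. The table held 1 probe set for each of the 9 genes, so no value could be set against another probe set of the same gene. OLIG1, GFAP and OLIG2 lay among the dimmest 30% of genes, with means over the 4 arrays of 4.23, 4.47 and 5.10, and are called near the floor here. The lowest mean of any gene was 3.24, the 5th percentile was 3.93, and the dimmest gene kept for the test had a mean of 5.46. PDGFRA (5.77), SOX2 (5.95), CSPG4 (5.97) and MBP (6.04) lay above that limit but below the median of all genes, 6.52. SOX10 (6.93) and CNP (7.32) were above the median, at the 57.5th and 63.7th percentile of the genes' means. Probe sets differ in brightness for the same amount of transcript, so this order is not one of transcript abundance. The means of PDGFRA, SOX2, CSPG4 and MBP lay within 0.27 of each other, and their ranges over the 4 arrays overlapped.

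**Figure D1:**
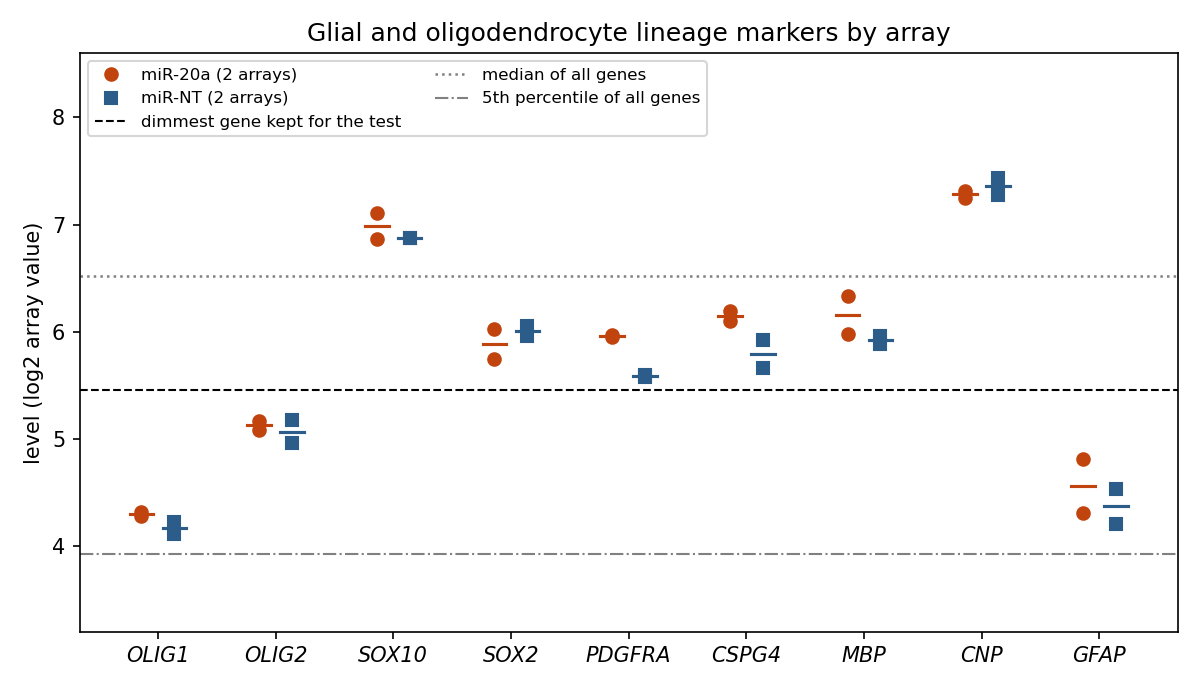
Level of each marker gene on each array (vertical axis, log2 array value), with miR-20a arrays as circles and miR-NT arrays as squares, short bars for the group means (n = 2 each) and horizontal lines for the dimmest gene kept (5.46), the median of all genes (6.52) and the 5th percentile (3.93). OLIG1, OLIG2 and GFAP lie below the dashed line on every array, and the groups stand apart for OLIG1, PDGFRA, CSPG4 and MBP.

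Genes that belong to unrelated tissues were read on the same arrays. Of 20 listed genes of liver, pancreas, heart, blood, testis, eye, kidney, lung, skin and thyroid, 16 were measured, with a median level of 4.82. They ranged from 3.87 for ALB, the serum albumin of liver, to 7.51 for CD3E, a chain of the T cell receptor complex. Above the filter on dim genes lay 6 of the 16, none called in limma (2 at an unadjusted p under 0.05). At that p, 722 of the 12401 tested genes were higher with miR-20a and 1633 lower. All 9 markers lay below CD3E, but SOX10 and CNP lay above the next brightest genes of other tissues, TG (6.63) and KRT1 (6.52). Levels up to that of TG were thus also given by probe sets of genes known for other tissues, and levels above SOX10 and CNP by CD3E alone. Whether the 6 markers above the filter were expressed was not tested.

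The nuclear factors of the lineage showed small differences between the groups. In bulk RNA such as this, fewer cells of a type and less RNA per cell cannot be told apart. OLIG1 (probe set 228170_at), a basic helix-loop-helix factor, measured 4.28 and 4.32 with miR-20a, against 4.11 and 4.22 with miR-NT. Both miR-20a arrays lay above both miR-NT arrays, by 0.13 on the log2 scale between the means. OLIG2 (213825_at), its neighbour on chromosome 21 and a factor that specifies oligodendrocyte precursors, measured 5.08 and 5.17 with miR-20a, against 4.96 and 5.18 with miR-NT. Its arrays overlapped, with miR-NT replicate 2 the highest and miR-NT replicate 1 the lowest, and the log2 fold change was 0.06. Neither gene entered the main test, being dim, and neither passed in the fit of all 17716 genes without the filter (limma adjusted p = 0.481 for OLIG1 and 0.772 for OLIG2).

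SOX10 (209843_s_at), the factor of the SOX family that acts throughout the oligodendrocyte lineage, measured 7.11 and 6.86 with miR-20a, against 6.87 and 6.87 with miR-NT. One miR-20a array lay above and the other just below the miR-NT pair, whose 2 values were identical. Such identity was shared by 62 of the 20323 probe sets in the miR-NT pair and by 56 in the miR-20a pair, and the SD of 0 in miR-NT is not used as a measure of spread. The log2 fold change of SOX10 was 0.12 (SE 0.11, limma adjusted p = 0.560), and without miR-20a replicate 1 it was −0.01. SOX2 (213722_at), a factor that maintains neural stem cells, measured 5.75 and 6.03 with miR-20a, against 5.96 and 6.05 with miR-NT. The miR-20a arrays differed from each other by 0.29, more than the groups did, and the log2 fold change of −0.12 (SE 0.12) did not pass (limma adjusted p = 0.583). Without miR-20a replicate 1 it was 0.025.

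The surface markers of oligodendrocyte precursors had the largest fold changes among the 9 in the fit of all 4 arrays without a covariate, and neither passed the test. PDGFRA (215305_at), the receptor for platelet-derived growth factor that keeps precursors dividing, measured 5.97 and 5.95 with miR-20a, against 5.60 and 5.58 with miR-NT. The arrays of each group lay close together and the groups did not overlap. The difference was 1.30-fold (log2 fold change 0.37, SE 0.09, 95% interval 0.15 to 0.59), with limma adjusted p = 0.136 over the 12401 genes tested. By p it ranked 434th of those genes, and by log2 fold change 128th from the highest. CSPG4 (214297_at), the NG2 proteoglycan, measured 6.10 and 6.20 with miR-20a, against 5.92 and 5.66 with miR-NT. The groups did not overlap here either, and the miR-NT arrays differed by 0.26. The difference was 1.28-fold (log2 fold change 0.36, SE 0.12, 95% interval 0.08 to 0.63, limma adjusted p = 0.193). CSPG4 ranked 1106th by p. With 1 array left out, the log2 fold change ranged from 0.36 to 0.39 for PDGFRA and from 0.23 to 0.49 for CSPG4. The order depended on the arrays: without miR-20a replicate 1, GFAP (0.44) and MBP (0.41) exceeded PDGFRA (0.36), and without miR-NT replicate 2, MBP (0.27) exceeded CSPG4 (0.23).

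The stretches just before the starts of PDGFRA and CSPG4 are shown because these members had the largest fold changes over all 4 arrays, a choice made after their values were seen. Each is the 250 bases before an annotated start, from RefSeq (GRCh38.p14), written 5′ to 3′ on the gene's own strand. The first PDGFRA start has chr4:54229043-54229292 and the second chr4:54233710-54233959, both on the plus strand, and CSPG4 has chr15:75712849-75713098 on the minus strand. Capitals mark the letters CANNTG, the E-box bound by basic helix-loop-helix factors such as the OLIG proteins, and ACAAT, the core bound by SOX factors, searched on both strands, with no overlap between them in these windows.
PDGFRA start 1: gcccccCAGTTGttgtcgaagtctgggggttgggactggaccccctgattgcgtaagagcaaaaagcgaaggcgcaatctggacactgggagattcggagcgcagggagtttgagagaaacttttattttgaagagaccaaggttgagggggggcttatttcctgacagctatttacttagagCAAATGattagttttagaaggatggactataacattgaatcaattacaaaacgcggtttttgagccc
PDGFRA start 2: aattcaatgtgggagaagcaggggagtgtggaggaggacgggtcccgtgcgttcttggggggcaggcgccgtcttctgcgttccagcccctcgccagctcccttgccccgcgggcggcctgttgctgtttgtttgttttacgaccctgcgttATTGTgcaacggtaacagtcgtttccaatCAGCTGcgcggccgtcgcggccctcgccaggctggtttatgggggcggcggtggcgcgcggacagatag
CSPG4: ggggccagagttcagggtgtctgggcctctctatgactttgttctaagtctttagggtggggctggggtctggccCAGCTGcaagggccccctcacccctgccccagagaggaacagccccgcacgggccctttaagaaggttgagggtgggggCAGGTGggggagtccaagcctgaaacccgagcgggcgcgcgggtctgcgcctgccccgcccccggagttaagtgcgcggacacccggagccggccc

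An E-box was found in all 3 windows, 2 at the first PDGFRA start, 1 at the second and 2 before CSPG4. It was also found in 61.8% of the 35116 windows of the same length in the RefSeq table. The SOX core was found once, before the second PDGFRA start, and in 24.6% of all windows. These matches are descriptions of the letters and not binding sites. Windows were matched for 5 of the 9 members, and not for OLIG1, OLIG2, SOX10 and GFAP.

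The myelin genes did not pass in either direction. MBP (207323_s_at), the basic protein that compacts myelin, measured 5.98 and 6.33 with miR-20a, against 5.89 and 5.96 with miR-NT. The lower miR-20a array exceeded the higher miR-NT array by little, and the miR-20a arrays differed from each other by 0.36. The log2 fold change was 0.23 (SE 0.13, limma adjusted p = 0.364), and it was 0.05 without miR-20a replicate 2. CNP (1557943_at), a phosphodiesterase of myelin and the brightest of the 9, measured 7.31 and 7.25 with miR-20a, against 7.28 and 7.44 with miR-NT. The groups overlapped, and the log2 fold change was −0.08 (SE 0.10, 95% interval −0.32 to 0.17, limma adjusted p = 0.677).

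GFAP (203540_at), the marker of astrocytes, had the widest spread of the 9. It measured 4.31 and 4.81 with miR-20a, against 4.54 and 4.21 with miR-NT, near the floor on every array. The highest and the second-lowest value both belonged to miR-20a, and the arrays within a group differed by 0.50 with miR-20a and by −0.33 with miR-NT (replicate 2 minus replicate 1). The log2 fold change of 0.19 between the means was smaller than either of these differences (limma adjusted p = 0.565 in the fit without the filter).

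**Figure D2:**
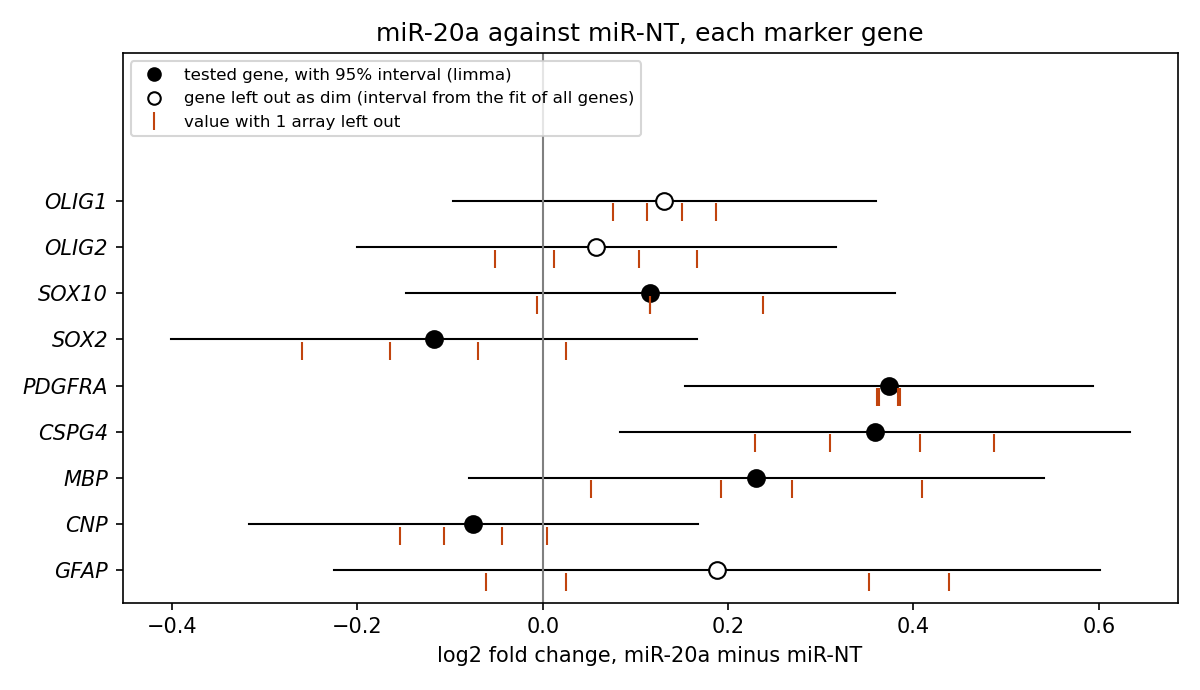
Log2 fold change of each marker gene (horizontal axis, miR-20a minus miR-NT, 0 meaning no difference), with 95% intervals from limma and a tick for each value with 1 array left out; open circles are the genes left out of the main test as dim. The intervals of PDGFRA (0.15 to 0.59) and CSPG4 (0.08 to 0.63) lie above 0 before adjustment over all genes, and the other 7 include 0.

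As a group, 7 of the 9 markers had a log2 fold change above 0 and 2 below, with a median of 0.13, where the median over all 17716 genes was 0.00. Among the 6 that passed the filter, 4 were above 0 and 2 below. At an adjusted p under 0.05 in limma, 0 of these 6 were called, where 0.00806% of the 12401 tested genes were called, 1 gene in all. At an unadjusted p under 0.05 in the same limma fit the count was 2, PDGFRA and CSPG4, both higher, where 722 tested genes were higher and 1633 lower. The groups did not overlap for 4 of the 9, OLIG1, PDGFRA, CSPG4 and MBP, all higher with miR-20a. Of all genes, 26.7% were higher and 27.2% lower in this sense, and 0 of the 9 were lower. With 2 arrays a group, the smallest p that an exact permutation allows is 0.333, and no such test was run.

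Fold changes across these arrays went with the level of the gene. Genes were split into deciles by mean level. In the brightest decile the median log2 fold change was −0.10 and 27.9% of genes were above 0. In the dimmest decile the median was 0.06 and 63.1% were above 0. PDGFRA, CSPG4 and SOX2 fell in the fourth decile from the dimmest, where the median was 0.03, the quartiles were −0.11 and 0.15, and 27.6% of genes stood apart as higher. PDGFRA, CSPG4, MBP and GFAP lay above the upper quartile of their own decile, SOX2 below the lower quartile, and the other 4 between the quartiles. The part of this relation in the members' fold changes was not tested.

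**Figure D3:**
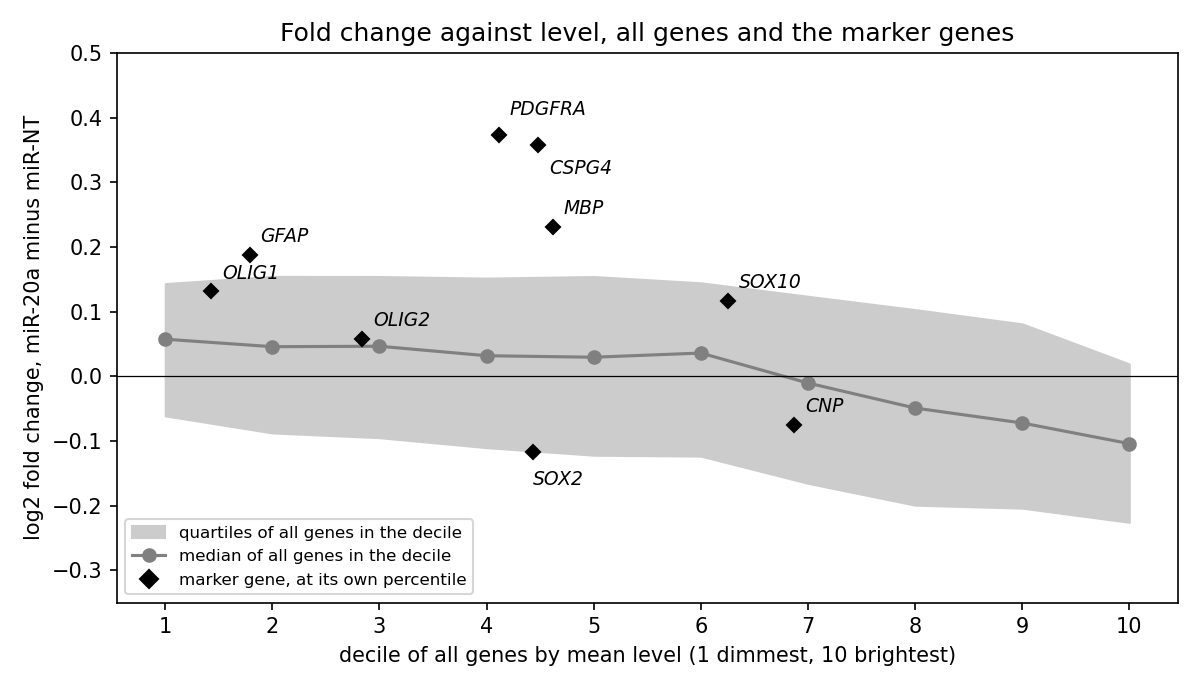
Log2 fold change (vertical axis, miR-20a minus miR-NT) against the decile of all genes by mean level (horizontal axis, 1 dimmest, 10 brightest), with the median and quartiles of all genes in each decile and the marker genes as diamonds at their own percentile. The median of all genes runs from 0.06 in the dimmest decile to −0.10 in the brightest, and PDGFRA (0.37) and CSPG4 (0.36) lie highest among the markers.

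Signals read as signs of RNA quality were lower on both miR-20a arrays, without passing (limma adjusted p = 0.110 for ACTB 5′ and 0.133 for GAPDH 5′ over all probe sets). They read the 5′ end alone, so lower RNA quality and less of these transcripts cannot be told apart. The ACTB 5′ control probe set, which reads the far end of an abundant transcript, measured 11.59 and 10.43 with miR-20a, against 12.78 and 12.66 with miR-NT, and for GAPDH 5′ the values were 13.17 and 12.30 with miR-20a, against 13.89 and 13.81 with miR-NT. ACTB 5′ itself differed between the groups (log2 fold change −1.71) and between the 2 miR-20a arrays (−1.16, replicate 2 minus replicate 1). A fit with it as covariate draws the effect of ACTB 5′ mostly from the miR-20a pair. Such a fit cannot cleanly separate that effect from the difference between the groups. With ACTB 5′ added to the fit as covariate, the 9 fold changes had a median of −0.01. SOX2 (−0.55), GFAP (−0.50) and SOX10 (0.47) then had the largest log2 fold changes of the 9, followed by PDGFRA (0.41), MBP (−0.30) and CSPG4 (0.25). None of the 6 tested members passed in that fit, with limma adjusted p of 0.642 for SOX2, 0.763 for SOX10, 0.860 for PDGFRA and 0.959 for CSPG4. Without miR-20a replicate 1, CSPG4 (0.41, limma adjusted p = 0.0414) and MBP (0.41, 0.0318) were called as higher, where 15.1% of all tested genes were called in that fit. Such a fit has a lone miR-20a array, whose spread is assumed to be that of the miR-NT pair. QKI itself measured 7.52 and 7.08 with miR-20a, against 8.14 and 7.92 with miR-NT (log2 fold change −0.73, SE 0.16, limma adjusted p = 0.106). Both miR-20a arrays thus lay below both miR-NT arrays for QKI, whose mean was at the 68.2nd percentile of the genes' means. The part of this difference in the members' fold changes was not tested.

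Other genes of the oligodendrocyte lineage gave no call in either direction. Of 30 listed genes 26 were measured, 17 of them dim and 9 tested. In limma over all genes 0 of the 9 passed (2 at an unadjusted p under 0.05, as were 722 higher and 1633 lower of the 12401 tested genes). Over all 26 measured, 12 were above 0 and 14 below, with a median log2 fold change of −0.0044, and 5 stood apart as higher and 5 as lower. Of the 9 tested, 2 were above 0 and 7 below, with a median of −0.13. ENPP2, the lysophospholipase autotaxin that oligodendrocytes secrete, measured 6.95 and 6.84 with miR-20a, against 7.44 and 7.37 with miR-NT (log2 fold change −0.51, SE 0.10, limma adjusted p = 0.0963). TCF7L2, a Wnt pathway factor of differentiating oligodendrocytes, measured 5.49 and 5.12 with miR-20a, against 5.68 and 5.81 with miR-NT (−0.43, SE 0.14, limma adjusted p = 0.187). UGT8, which makes the myelin lipid galactosylceramide, had a log2 fold change of −0.18 (SE 0.11, limma adjusted p = 0.389). These 3, named for their small p, stood apart as lower, with GPR17 and ST8SIA1 among the dim genes, where SOX6, MYRF, MOG, ERBB3 and FA2H, all dim, stood apart as higher. The summed level of the list, the sum of its genes' log2 values, was 140.5 and 140.7 with miR-20a, against 142.1 and 141.3 with miR-NT. The brightest of the list was CLDN11, the tight junction protein of myelin, at 8.59. MAG, MOG and MOBP, proteins of mature myelin, and MYRF, a factor that drives myelination, lay between 4.31 and 5.10, below the filter. Others of the list lay above it, among them UGT8 (7.45), ZNF488 (7.30), NKX2-2 (7.21) and MAL (5.78). These examples of level were chosen after their values were seen.

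Astrocyte genes included the brightest of these lineages. All 20 listed were measured and 14 tested, 8 above 0 and 6 below, with a median log2 fold change of 0.01. In limma 0 passed (6 at an unadjusted p under 0.05, as were 722 higher and 1633 lower of the 12401 tested genes). The filament protein VIM had a mean level of 14.20, the transcriptional inhibitor ID3 of 12.38, the gap junction protein GJA1 of 10.71 and the glial factor SOX9 of 9.53, while AQP4, SLC1A3 and S100B, with GFAP, lay below the filter. NFIB and NFIA, nuclear factors that switch on glial genes, had log2 fold changes of −0.39 (SE 0.11) and −0.38 (SE 0.10). The secreted chaperone CLU was at 0.38 (SE 0.11), with limma adjusted p from 0.149 to 0.170 for the 3 genes. The summed level of the astrocyte list was 144.6 and 145.2 with miR-20a, against 145.0 and 145.8 with miR-NT, and its groups overlapped.

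Neural stem cell genes were above 0 in all 4 that were tested, of 11 measured and 12 listed, with a median log2 fold change of 0.20. None passed in limma over all genes (1 at an unadjusted p under 0.05, as were 722 higher and 1633 lower of the 12401 tested genes). HES1, a repressor downstream of Notch, measured 9.25 and 9.13 with miR-20a, against 8.91 and 8.96 with miR-NT (0.26, SE 0.10, limma adjusted p = 0.238). The eye and forebrain factor PAX6 was at 0.23 (SE 0.10) and the fucosyltransferase FUT4 at 0.18 (SE 0.10), with limma adjusted p of 0.281 and 0.353. Of the 11 measured, 8 stood apart as higher and 0 as lower, where the shares over all genes were those given above. Near the floor lay 7 of the 11, among them NES (4.75), MSI1 (5.04) and, standing apart as higher, PROM1 (3.94), SOX1 (4.93), NOTCH1 (5.16) and POU3F2 (5.01). In the dimmest decile of all genes 63.1% were above 0. SOX2, a member and not in this list, was at −0.12. The summed level of the list was 64.87 and 65.01 with miR-20a, against 62.73 and 63.28 with miR-NT.

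Markers of other cell types were mixed in level. Of the lists of neurons, Schwann cells and melanocytes, pericytes and fibroblasts, immune, endothelial and epithelial cells, 9 of 14, 4 of 7, 7 of 10, 4 of 8, 1 of 6 and 2 of 6 measured genes passed the filter. None was called in limma over all genes (4 at an unadjusted p under 0.05, as were 722 higher and 1633 lower of the 12401 tested genes). The smallest p of each list belonged to RBFOX3 (log2 fold change 0.32), PMEL (−0.20), COL3A1 (−0.47), CD3E (0.28), PECAM1 (0.30) and CLDN4 (−0.23), with limma adjusted p from 0.121 to 0.366. Within each list some classic markers lay below the filter and others above it, and the examples were chosen after their values were seen. Among neuronal genes DCX (4.02), STMN2 (4.10) and GAP43 (3.66) were near the floor, while MAP2 (8.20), SNAP25 (7.52) and RBFOX3 (5.63) were not. Among immune genes PTPRC (4.18) and TYROBP (3.72) were near the floor, while AIF1 (7.53) and CD3E (7.51) were not. Of the endothelial genes CDH5 was at 4.40 and PECAM1 at 5.89, and of the epithelial genes EPCAM was at 4.20 and KRT5 at 6.83. The tubulin TUBB3, listed for neurons, was bright at 12.61. Among pericyte and fibroblast genes LUM (3.73), DES (4.47) and DCN (5.13) were near the floor, while THY1 (10.39) and PDGFRB (8.46) were not.

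The summed levels of 3 of these lists stood apart between the groups, as did those of the oligodendrocyte and neural stem lists given above. Of all single genes, 26.7% stood apart as higher and 27.2% as lower. A sum over a list is another measure, and how often sums of as many genes stand apart was not computed. For neurons the sum was 93.10 and 92.75 with miR-20a, against 91.72 and 91.65 with miR-NT. For Schwann cells and melanocytes it was 42.18 and 42.32 with miR-20a, against 41.97 and 41.54 with miR-NT. For pericytes and fibroblasts it was 65.49 and 65.51 with miR-20a, against 65.91 and 65.89 with miR-NT, and so lower. The groups overlapped for the immune list (45.06 and 45.93 with miR-20a, against 45.36 and 45.06 with miR-NT), the endothelial list (28.75 and 29.78, against 28.95 and 29.42) and the epithelial list (30.15 and 30.99, against 30.69 and 30.98). The part of these sums in the markers' fold changes was not tested.

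**Figure D4:**
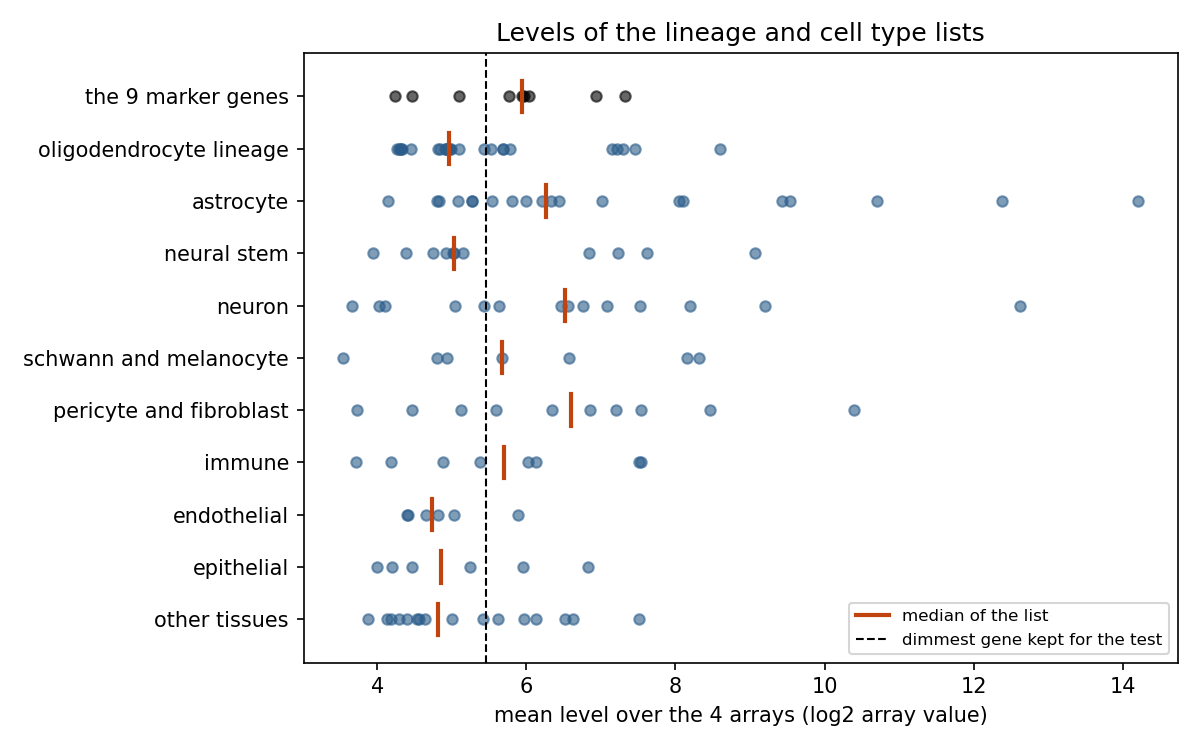
Mean level over the 4 arrays (horizontal axis, log2 array value) of each measured gene of the marker lists, with the median of each list as a bar and the dimmest gene kept for the test (5.46) as a dashed line. The 9 markers lie between 4.23 and 7.32, inside the span of the genes of other tissues (3.87 to 7.51), while the astrocyte list reaches 14.20. Of the genes of other tissues, only CD3E lies above SOX10 and CNP.

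The genes whose profile over the 4 arrays, centred on its own mean, lay nearest to PDGFRA were BAIAP2L1, CD24 and KRT77, at Euclidean distances of 0.020, 0.027 and 0.028 on the log2 scale. Those nearest to CNP, the brightest marker, were CPNE7, UBE2Z and CENPE, at 0.009, 0.026 and 0.026. Over 4 arrays many genes are alike, and 105 tested genes lay within 0.1 of PDGFRA and 251 within 0.1 of CNP.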

How the data were processed

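Per the labels' protocols, biotinylated cRNA for the Affymetrix arrays was made from 6 ug of column-purified total RNA. The authors deposited log2 values, 1 per probe set and array, a scale judged from their range; the tool listed in the submitters' processing notes is affy, without a version. For summarisation, background correction, normalization, the choice of the 20323 probe sets and the genome build, the entry is: not given in the sources used here. Depth does not apply, and the number of arrays limits the precision.

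Groups and replicate numbers came from the titles, and all 4 columns were mapped. Names came from the platform annotation for probe sets with 1 gene symbol, brought up to date by gene identifier (18036 matched; 886 probe sets had several symbols and 1375 none). The probe set with the highest mean was kept per gene, and the 5315 dimmest of 17716 genes were left out. The 12401 others entered a two-sided test of miR-20a over miR-NT without covariates (limma 3.58.1, R 4.3.3, functions lmFit and eBayes), called at a Benjamini-Hochberg adjusted p under 0.05 across them all; residual and prior degrees of freedom were 2 and 5.53. Each SE and interval is that of the moderated fit. Summaries used Python 3.11.15 and pandas 2.3.3.

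The members, the lists, the tests and the alternatives were chosen with earlier results of these data known. The named genes were the 9 members, QKI, the 5′ controls, the 3 tested genes of smallest p per list (some are not described), and the 3 genes nearest in profile to CNP and PDGFRA; other list members and their levels were named after their values were seen. A simulation of this comparison was run 20 times, with 12401 genes, 200 of them changed. The fit recovered 17.8% of genes changed by 0.5 on the log2 scale and 95.3% of those changed by 1. Of its calls, 5.32% were false. The smallest size tried, 0.5, was larger than any member's fold change over all 4 arrays without a covariate (0.37 at most). Recovery at smaller sizes was not tested. Its noise was normal, independent between arrays, and drawn from the prior that limma had fitted. A share of false calls near 5% was therefore built in. On the real arrays same-numbered arrays deviated together (r = 0.267), which the simulation left out. Recovery and false calls under noise like that of the real arrays were not tested. Alternatives were other normalizations, filters, variance models and probe set rules, the replicate number as a block, ACTB 5′ as covariate, and each array left out in turn.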

Additional observations from a re-analysis of the deposited data

How the results depend on the processing

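The count of all genes called was 1 in the analysis as reported and was also 1 without the filter on dim genes, with probe sets averaged per gene and with each probe set tested separately. It was 6 after quantile normalization, 47 after median centring, 4 with the dimmest 50% left out, 24 with an intensity trend and robust prior, 6 with the ACTB 5′ covariate and 0 with the replicate block, and from 0 to 1869 with an array left out, most without miR-20a replicate 1. Members called numbered 0 except without that array, where CSPG4 and MBP made 2. Calls in the other lists were 0 except for 7 without miR-20a replicate 1 and 2 without replicate 2. The members' median log2 fold change was 0.13, from 0.05 to 0.17 with an array left out and −0.0052 with the ACTB 5′ covariate. Signs turned for SOX10 (−0.0061) and SOX2 (0.025) without miR-20a replicate 1, MBP (−0.30) with the ACTB 5′ covariate, CNP (0.0041) without miR-NT replicate 2, and, among the genes near the floor, OLIG2 (−0.11) and GFAP (−0.50) with the covariate, OLIG2 (−0.05) without miR-NT replicate 1 and GFAP (−0.06) without miR-20a replicate 2; the cause was not tested. With an array left out, SOX10 reached 0.24, SOX2 −0.26, CNP −0.15, OLIG1 0.076 and GFAP 0.44 at their far ends, and with the ACTB 5′ covariate SOX10 was at 0.47, SOX2 at −0.55 and OLIG1 at 0.06. PDGFRA stayed between 0.36 and 0.41 and CSPG4 between 0.23 and 0.49 over the 12 alternatives each entered. Filters, variance models, probe set rules and the replicate block could not move these 2 fold changes, since each gene had 1 probe set. Only the normalizations, the covariate and the arrays left out could. Same-numbered arrays deviated together (r = 0.267 across 12401 genes, which are not independent), but no label ties the numbers; with the replicate block the adjusted p was 0.139 for PDGFRA and 0.178 for CSPG4, and no member's call changed. OLIG1, OLIG2 and GFAP were tested only without the filter on dim genes. Near the floor, signal over background limits what can be seen.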
